A study of Mus musculus with 2 samples.

Results

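Pck1, G6pc, Fbp1, Khk, Sord and Miox are 6 genes for sugar-handling enzymes that the mouse kidney makes mainly in its proximal tubule. They were chosen by name, and all 6 were found among the 32285 genes of the count matrices. Their transcripts were counted in a cisplatin and a saline single-cell library, in barcodes carrying proximal tubule markers and in near-empty barcodes that hold free RNA.

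The proximal tubule is, beside the liver, the main site of glucose synthesis in the body. It makes glucose from lactate, glutamine and glycerol, and it burns mostly fatty acids rather than glucose. Pck1 encodes the cytosolic phosphoenolpyruvate carboxykinase, which turns oxaloacetate into phosphoenolpyruvate and is induced in the tubule by acidosis, cyclic AMP and glucocorticoids. Fbp1 encodes fructose-1,6-bisphosphatase, a later step of the same pathway, and G6pc encodes the catalytic subunit of glucose-6-phosphatase, which releases free glucose. Khk, ketohexokinase, phosphorylates fructose, and Sord, sorbitol dehydrogenase, makes fructose from sorbitol. Miox, myo-inositol oxygenase, opens the ring of myo-inositol to give glucuronate and is largely a kidney enzyme.

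The cisplatin library came from male C57BL6/J mice aged 10 to 12 weeks that received cisplatin at 20 mg/kg, a platinum drug toxic to the tubule, and the saline library from mice of the same sex, strain and age that received saline. Kidneys were taken at 72 h, and 10 kidneys were pooled per condition (the design names 5 mice), so each condition is 1 library and no spread between animals can be measured. Cells were selected with magnetic beads for CD31 and then for podoplanin, and both libraries are labelled as lymphatic endothelial cells. The tubule share goes against that label. UMIs are unique molecular identifiers, each 1 captured transcript. Of the barcodes with at least 500 UMIs, 83.5% in the cisplatin and 27.3% in the saline library met the proximal tubule gate. An endothelial gate was met by 5.52% in the cisplatin and 71.0% in the saline library. The gate for lymphatic markers was met by 0 in either library. That gate asked for more UMIs of 7 lymphatic genes than of 18 endothelial genes. A lymphatic endothelial cell could thus be counted as endothelial, and the 0 does not bear on the label. The tubule barcodes described here remained after an endothelial selection and are not a sample of the whole tubule.

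A barcode was gated as proximal tubule when it held at least 500 UMIs, at least 3 UMIs from at least 2 of 22 tubule genes, and more of these than of any of 8 other marker lists. With at most 20% of UMIs from mitochondrially encoded (mt-) genes, the gate held 1424 of 3441 cisplatin barcodes and 172 of 630 saline barcodes, with 1313805 UMIs in cisplatin and 136725 in saline barcodes and median depths of 718 UMIs in cisplatin and 660 in saline barcodes. Without that limit it held 2872 cisplatin barcodes and the same 172 saline barcodes. The libraries differed in RNA content: in the gated barcodes under the limit, mt- genes took 10.7% of UMIs in the cisplatin library and 3.64% in the saline library, and the nuclear RNA Malat1 took 9.05% in the cisplatin library and 12.5% in the saline library. No barcode of at least 500 UMIs occurred in both libraries. The 22 gate genes were all detected in both libraries, and their summed share was 2.23% of UMIs in cisplatin barcodes and 3.23% in saline barcodes. Of the other lists, the summed level of 8 loop and distal tubule markers had a cisplatin over saline ratio of 0.405 (95% interval 0.362 to 0.454), with 0 of them at 0 in the cisplatin library and 1 in the saline library. The endothelial list stood at 0.859 (0.753 to 0.984) and the leukocyte list at 1.57 (0.976 to 2.69), with 0 of its 12 genes at 0 in the cisplatin library and 5 in the saline library. The part of these markers in the results below was not tested.

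In gated barcodes under the mt- limit, an early step of glucose synthesis and the last differed in opposite directions. Pck1 had 431 UMIs in the cisplatin library, or 328 CPM (counts per 1000000 UMIs), against 16 UMIs or 117 CPM in the saline library. G6pc had 117 UMIs or 89.1 CPM in the cisplatin library, against 22 UMIs or 161 CPM in the saline library. The cisplatin over saline ratio was thus 2.80 for Pck1 (95% exact binomial interval 1.71 to 4.95) and 0.553 for G6pc (0.349 to 0.917), and neither interval held 1. Fbp1, which lies between them in the pathway, had 92 UMIs or 70.0 CPM in the cisplatin library, against 8 UMIs or 58.5 CPM in the saline library, a ratio of 1.20 (0.583 to 2.86). At 8 saline UMIs a difference in Fbp1 was not detectable. All intervals here cover counting error only, not differences between mice or preparations.

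Of the fructose and polyol enzymes, Sord and Miox were lower in the cisplatin library and Khk was near parity. Khk had 528 UMIs or 402 CPM in the cisplatin library, against 50 UMIs or 366 CPM in the saline library, a ratio of 1.10 (0.821 to 1.5). Sord had 380 UMIs or 289 CPM in the cisplatin library, against 62 UMIs or 453 CPM in the saline library, a ratio of 0.638 (0.487 to 0.848). Sorbitol dehydrogenase message was therefore lower while that of ketohexokinase, which acts on its product, differed by less than the counting error. Miox had 582 UMIs or 443 CPM in the cisplatin library and was the most abundant of the 6 there, against 95 UMIs or 695 CPM in the saline library, where it was also the most abundant (UMIs from 3′ ends do not scale with transcript length). Its ratio was 0.638 (0.512 to 0.801).

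**Figure D1:**
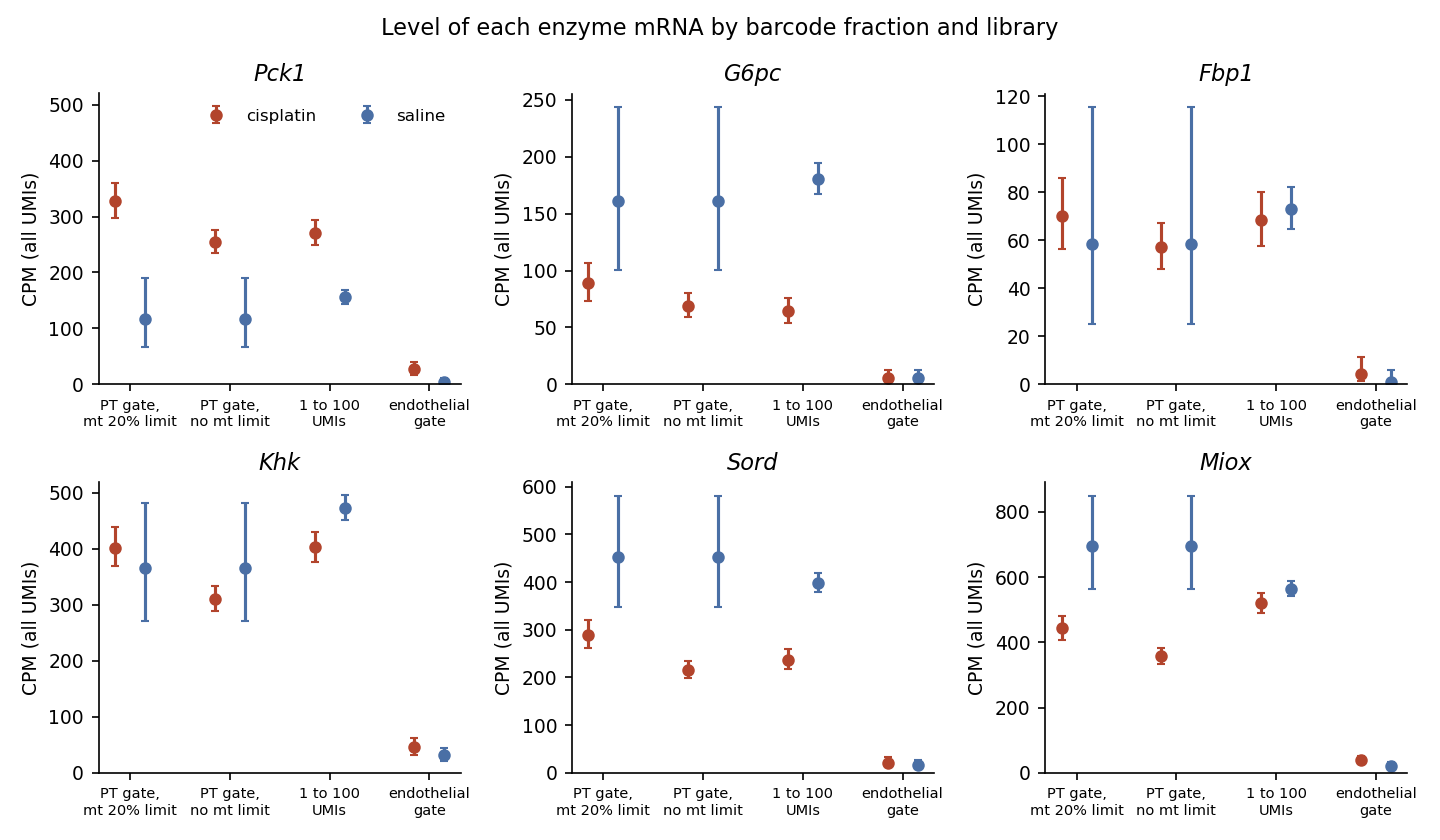
Level of each of the 6 genes, in CPM of all UMIs on a linear axis with its own scale in each panel, in the cisplatin and the saline library, for proximal tubule (PT)-gated barcodes with and without the 20% mt- limit, barcodes of 1 to 100 UMIs and endothelial-gated barcodes, with 95% exact Poisson intervals of 1 library each. In PT-gated barcodes and in those of 1 to 100 UMIs, Pck1 is higher in the cisplatin library and G6pc lower, at 89.1 CPM in cisplatin and 161 CPM in saline barcodes under the limit, and all 6 genes are low in endothelial-gated barcodes.

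A gene was called higher or lower when its ratio was at least 1.5 in either direction with an interval leaving out 1, given at least 20 UMIs over both libraries. By that rule 1 of the 6 genes was higher (Pck1) and 3 were lower (G6pc, Sord and Miox), where 3.41% of 8998 measured genes were higher and 5.03% lower. Among the 2461 genes with at least 100 UMIs, a depth that all 6 genes reach, 7.19% were higher and 9.18% lower. At a ratio of at least 2 in place of 1.5, Pck1 was still higher and 0 of the 6 genes were lower, against 2.9% and 3.15% of all genes. Over 15 processing alternatives the number of lower genes ran from 0 to 3 and that of higher genes from 1 to 2, and Sord stood at 1.16 in barcodes with no endothelial marker UMI. The call of Pck1 was kept under all 15, that of G6pc under 10, and those of Sord and of Miox under 7 each. The interval of G6pc held 1 at an mt- limit of 10% (0.685, 0.410 to 1.19) and under a stricter gate (0.650, 0.388 to 1.16). The median log2 ratio was -0.27 over the 6 genes and -0.09 over all measured genes.

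With no mt- limit, the cisplatin group gained 1448 barcodes in which mt- genes took 49.4% of UMIs, and the ratio of each of the 6 genes was lower than under the limit. Pck1 had 255 CPM in cisplatin barcodes, against 117 CPM in saline barcodes, a ratio of 2.18 (1.33 to 3.83). G6pc had 68.9 CPM in cisplatin barcodes, against 161 CPM in saline barcodes, a ratio of 0.428 (0.274 to 0.701). Sord stood at a ratio of 0.477 and Miox at 0.514, and Khk, at 0.848, and Fbp1, at 0.975, passed to the other side of 1. Again 1 gene was called higher and 3 lower, beside a background of 1.21% higher and 11.1% lower, and the median log2 ratio was -0.61 over the 6 genes and -0.41 over all 10281 measured genes.

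Leaving the mt- genes out of the total moved the ratios up and ended 2 calls. In gated barcodes under the limit, Pck1 then had a ratio of 3.03 (1.84 to 5.34) and G6pc of 0.597 (0.377 to 0.990). Sord and Miox each came to 0.688, short of the 1.5-fold line, although neither interval held 1. The calls became 1 higher and 1 lower, against 4.73% and 3.49% of all genes. The interval of G6pc then ended just under 1.

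Barcodes of 1 to 100 UMIs hold too few transcripts for a cell and are read here as RNA free in each suspension. They numbered 376309 in the cisplatin library and 197491 in the saline library. Their UMIs came to 2140605 in the cisplatin and 3703779 in the saline library, so the saline counts here are far deeper than in the gated barcodes. This class may hold only part of the cisplatin free RNA. Cisplatin barcodes from just over 100 up to 200 UMIs held 6577434 UMIs, and saline ones 605929. Pck1 had 579 UMIs or 270 CPM in cisplatin free RNA, against 576 UMIs or 156 CPM in saline free RNA, a ratio of 1.74 (1.55 to 1.96). G6pc had 137 UMIs or 64.0 CPM in cisplatin free RNA, against 669 UMIs or 181 CPM in saline free RNA, a ratio of 0.354 (0.293 to 0.426). Pck1 was thus higher and G6pc lower in this class too. On the full total the Pck1 call depended on the depth range. The Pck1 ratio was 1.29 (1.02 to 1.62) in barcodes of 1 to 50 UMIs and 1.22 (0.803 to 1.87) in those of 1 to 20. It was 1.49 (1.36 to 1.63) for cisplatin barcodes of more than 100 and fewer than 500 UMIs against saline barcodes of 1 to 100. None of these passed the 1.5-fold line. Without mt- genes it was 2.42 at 1 to 50 UMIs, where 19.6% of all genes were called higher. Across the unlike ranges it was then 2.25, where 33.7% were. The libraries spread differently over depth, with 45680 cisplatin and 4492 saline barcodes from just over 100 up to 200 UMIs. G6pc was called lower under each of the 11 alternatives. The 2 sources are not independent, since free RNA also enters the gated barcodes.

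Among the other enzymes in free RNA, Sord alone passed the 1.5-fold line. Sord had 237 CPM in cisplatin free RNA, against 399 CPM in saline free RNA, a ratio of 0.595 (0.537 to 0.658). Khk had 402 CPM in cisplatin and 472 CPM in saline free RNA, a ratio of 0.851 (0.784 to 0.924). Miox had 520 CPM in cisplatin and 564 CPM in saline free RNA, a ratio of 0.921 (0.856 to 0.991), nearer to 1 than in gated barcodes, and Fbp1 had 68.2 CPM in cisplatin and 72.9 CPM in saline free RNA, a ratio of 0.936 (0.760 to 1.15). By the same rule 1 gene was higher and 2 lower, but 14.4% of 12375 genes were higher and 20.7% lower in this comparison, so a call is common here. At a ratio of at least 2, 0 of the 6 were higher and 1, G6pc, was lower, against 6.68% and 10.5% of all genes. The median log2 ratio was -0.17 over the 6 genes and -0.07 over all measured genes.

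In free RNA the mt- share was 30.6% of UMIs in the cisplatin library and 3.84% in the saline library, and the choice of total decided the direction for 3 of the 6 genes. With mt- genes left out, Miox had a ratio of 1.28, Fbp1 of 1.30 and Khk of 1.18, all above 1, while Sord stayed below it at 0.824. Pck1 had a ratio of 2.41 and G6pc of 0.491 on that total, and these were the only calls, 1 higher and 1 lower. The same change moved all genes: their median log2 ratio was 0.40, 34.7% of them were called higher and 7.48% lower, and the median of the 6 genes was 0.30. Leaving out the mt- genes multiplies every ratio by the same factor, so the place of each gene among the others is the same on both totals.

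**Figure D2:**
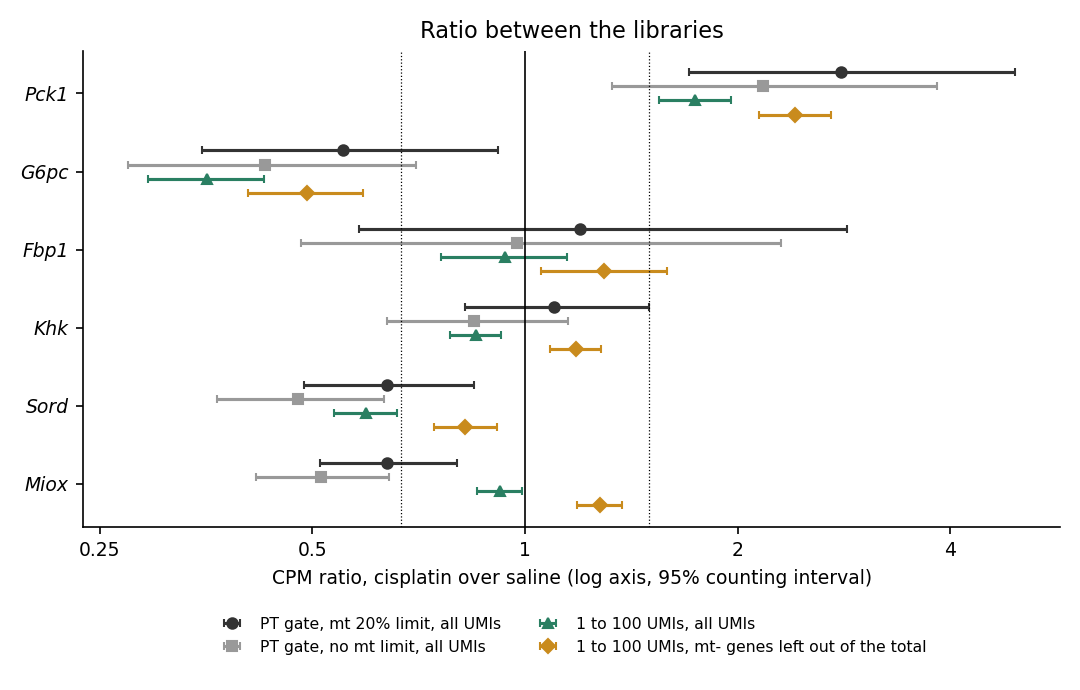
Cisplatin over saline ratio of CPM, on a log axis, for each of the 6 genes in proximal tubule (PT)-gated barcodes with and without the mt- limit and in barcodes of 1 to 100 UMIs on the full total and on that without mt- genes, with 95% exact binomial intervals and dotted lines at 1.5-fold in each direction. Pck1 lies above 1 in each and G6pc below it, while Miox in barcodes of 1 to 100 UMIs is at 0.921 on the full total and 1.28 without mt- genes.

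Barcodes of more than 100 and fewer than 500 UMIs lie below the gate's minimum, and how many of them hold only free RNA was not tested. The cisplatin library had 1643 barcodes of 21 to 50 UMIs and 45680 from just over 100 up to 200 UMIs. The saline library had 61137 and 4492. The same UMI range may therefore not hold like barcodes in both libraries. The ratios were 1.65 for Pck1, 0.323 for G6pc, 0.642 for Sord, 0.881 for Miox, 1.01 for Khk and 1.25 for Fbp1. That is 1 gene higher and 2 lower, where 8.46% of 13796 genes were higher and 22.2% lower. With mt- genes left out of the total, 3 genes were higher (Pck1 at 2.49, Fbp1 at 1.88 and Khk at 1.53) and 1 lower (G6pc at 0.487), where 29.8% of genes were higher and 7.22% lower, and Sord stood at 0.969 and Miox at 1.33. Here mt- genes took 36.2% of UMIs in the cisplatin library and 3.86% in the saline library.

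The balance between Pck1 and G6pc does not depend on any total, and it was examined after the values were seen. In gated barcodes under the mt- limit there were 3.68 Pck1 UMIs per G6pc UMI in the cisplatin library (3.0 to 4.56) and 0.727 in the saline library (0.357 to 1.45). In free RNA there were 4.23 in the cisplatin library (3.50 to 5.13) and 0.861 in the saline library (0.769 to 0.964), and in the barcodes of intermediate depth 3.89 in the cisplatin and 0.762 in the saline library. Pck1 message outnumbered G6pc message in the cisplatin library in each, and was the less frequent of the pair in the saline library. The gated cisplatin barcodes over the mt- limit, which have no saline counterpart, gave 3.72.

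As a share of the UMIs of all 6 genes, which also needs no library total, Pck1 made up 20.2% in cisplatin and 6.32% in saline gated barcodes, and 17.3% in cisplatin and 8.43% in saline free RNA. G6pc made up 5.49% in cisplatin and 8.70% in saline gated barcodes, and 4.10% in cisplatin and 9.79% in saline free RNA. Sord also took a smaller share in the cisplatin library, with 17.8% in cisplatin and 24.5% in saline gated barcodes, and 15.2% in cisplatin and 21.6% in saline free RNA. Miox did not keep its direction, with 27.3% in cisplatin and 37.5% in saline gated barcodes but 33.3% in cisplatin and 30.6% in saline free RNA. Shares of one sum are tied, so a larger Pck1 share lowers the others.

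**Figure D3:**
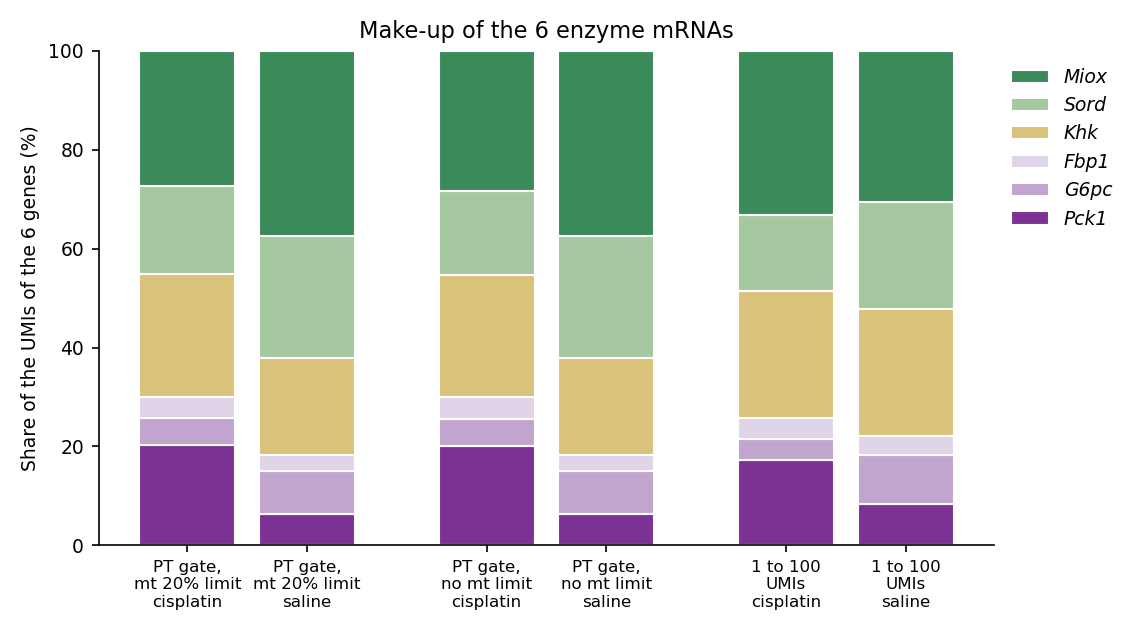
Share of the UMIs of the 6 genes taken by each gene, in percent, for the cisplatin and saline libraries in proximal tubule (PT)-gated barcodes with and without the mt- limit and in barcodes of 1 to 100 UMIs. Pck1, at the bottom of each bar, takes 20.2% in cisplatin and 6.32% in saline gated barcodes under the limit.

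The promoters of Pck1 and G6pc are shown because the results turn on this pair, whose messages differed in opposite directions. In liver and kidney both genes are classic targets of cyclic AMP, glucocorticoid and hepatocyte nuclear factor signalling. Pck1 lies at chr2:173153048-173159273 and G6pc at chr11:101367561-101377903, both on the plus strand of GRCm38, and no other annotated gene of the matrix overlaps either. The 300-base windows below are from RefSeq on GRCm38.p6, 5′ to 3′ on the plus strand, at chr2:173152823-173153122 and chr11:101367466-101367765. Each runs from 250 bases before to 50 after a start that lies inside the gene interval printed above. Motif distances are counted from that start, not from the first base of the interval. Capitals mark matches on either strand to the motifs named after them.
Pck1: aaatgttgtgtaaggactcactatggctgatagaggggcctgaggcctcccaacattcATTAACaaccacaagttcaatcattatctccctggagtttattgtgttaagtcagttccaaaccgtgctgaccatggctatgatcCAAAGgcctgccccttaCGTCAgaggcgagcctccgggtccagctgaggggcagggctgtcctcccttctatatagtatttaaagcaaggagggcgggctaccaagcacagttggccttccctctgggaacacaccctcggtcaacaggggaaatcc
G6pc: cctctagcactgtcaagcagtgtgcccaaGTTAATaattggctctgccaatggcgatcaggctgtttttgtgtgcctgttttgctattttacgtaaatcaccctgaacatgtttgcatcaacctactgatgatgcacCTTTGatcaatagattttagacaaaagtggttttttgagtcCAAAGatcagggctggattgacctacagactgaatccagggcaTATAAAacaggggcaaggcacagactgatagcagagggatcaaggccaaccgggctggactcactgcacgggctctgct
A handful of short motifs was searched on both strands in the promoters of all 6 genes. The hepatocyte nuclear factor 1 core GTTAAT occurred in 4 of the 6 promoters (Pck1, G6pc, Khk and Miox), and in 7.10% of all 32851 promoters of that length. It begins 192 bases before the start used for the Pck1 window and 221 before that used for the G6pc window. The hepatocyte nuclear factor 4 core CAAAG was in 3 of the 6 (Pck1, G6pc and Khk) and in 53.9% of all promoters. The cyclic AMP response core TGACG was in 2 (Pck1 and Khk) and in 20.8%, and TATAAA was in 2 (G6pc and Miox) and in 13.6%. The forkhead motif TGTTTAC was in 0 of the 6 and in 3.65%. No match overlapped another, and these matches are a description of letters, not of binding.

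Counted per barcode, the enzymes were sparse. After each barcode was thinned to 500 UMIs, 13.6% of cisplatin and 6.40% of saline gated barcodes held a Pck1 UMI (unthinned, 21.1% of cisplatin and 9.30% of saline ones). G6pc was seen in 4.21% of cisplatin and 8.14% of saline barcodes after thinning (unthinned, 7.30% of cisplatin and 11% of saline ones). Pck1 was thus detected more often in cisplatin barcodes at equal depth. Its exact binomial intervals were 11.8% to 15.4% in cisplatin and 3.24% to 11.2% in saline barcodes. G6pc was detected less often, but its intervals overlapped, at 3.23% to 5.39% in cisplatin and 4.52% to 13.3% in saline barcodes. Sord was found in 14.8% of cisplatin and 20.9% of saline thinned barcodes, and Miox in 20.3% of cisplatin and 30.2% of saline ones. Khk was found in 18.6% of cisplatin and 13.4% of saline thinned barcodes, and Fbp1 in 3.93% of cisplatin and 2.91% of saline ones. No gated barcode under the limit held more than 6 Pck1 UMIs in the cisplatin library or more than 1 in the saline library, so the largest single barcode held 6 of the 431 cisplatin Pck1 UMIs.

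Endothelial-gated barcodes were taken as a measure of background, which may not come from free RNA alone. Whether endothelial cells themselves express any of the 6 genes was not tested. Khk was the highest of the 6 in these barcodes, at 45.3 CPM in the cisplatin and 31.3 CPM in the saline library. These barcodes are deeper than the tubule barcodes, and thinning takes a larger part of their UMIs, so the unthinned shares are given too. There a Pck1 UMI was present in 2.58% of 155 cisplatin and 0.674% of 445 saline barcodes after thinning (unthinned, 11.6% of cisplatin and 0.899% of saline ones, at median depths of 2351 UMIs in cisplatin and 1065 in saline barcodes). For the other 5 genes the thinned share was at most 3.23% in cisplatin and 2.47% in saline endothelial barcodes. Unthinned, Khk was seen in 28.7% of cisplatin tubule barcodes and 21.3% of cisplatin endothelial ones, and in 20.9% of saline tubule barcodes and 6.52% of saline endothelial ones. Miox was seen unthinned in 30.1% of cisplatin tubule barcodes and 14.8% of cisplatin endothelial ones. With and without thinning, all 6 genes were seen more often in tubule-gated barcodes than in endothelial ones of the same library, Fbp1 with the fewest, at 56 cisplatin and 5 saline thinned tubule barcodes. In endothelial barcodes Pck1 reached 24 UMIs in the cisplatin library against 4 in the saline library, a ratio of 6.36 (2.19 to 25.2), where 13.5% of 8732 genes were called higher. The tubule marker sum in those same barcodes was 1.90 times as high in the cisplatin library (1.76 to 2.06). The collecting duct list had a ratio of 111, with 734 cisplatin and 7 saline UMIs. The loop and distal list stood at 8.05 and the stromal list at 6.16, and the lowest list, the endothelial one, at 1.11. In free RNA the collecting duct list stood at 1.18, the loop and distal list at 0.571 and the stromal list at 1.70. The part of these markers and of free RNA in the Pck1 ratio was not tested.

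**Figure D4:**
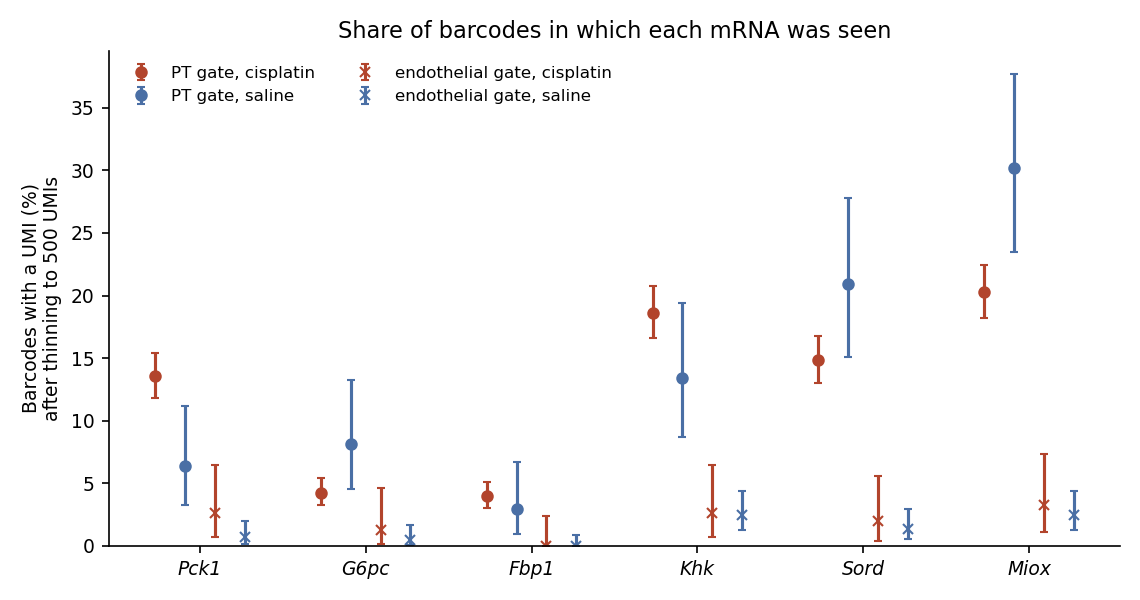
Percent of barcodes with at least 1 UMI of each gene after thinning to 500 UMIs, in proximal tubule (PT)-gated and endothelial-gated barcodes of the cisplatin and saline libraries, with 95% exact binomial intervals. Pck1 is found in 13.6% of cisplatin and 6.40% of saline PT-gated barcodes, against 2.58% of cisplatin and 0.674% of saline endothelial-gated barcodes.

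The level in gated barcodes was close to that in the free RNA of the same library. Gated over free CPM ran from 0.852 (Miox) to 1.39 (G6pc) over the 6 genes in the cisplatin library, and from 0.752 (Pck1) to 1.23 (Miox) in the saline library. For Malat1, which stays in nuclei, the ratio was 4.08 in the cisplatin library and 1.20 in the saline library. How far free RNA sets the gated values was not tested beyond the subtraction given with the processing alternatives.

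The tubule marker genes used by the gate were also lower as a sum, which touches every ratio here. Their sum had a cisplatin over saline ratio of 0.690 in gated barcodes under the limit and of 0.697 in free RNA, given as a description because they chose the barcodes. Per 1000 tubule marker UMIs, gated cisplatin barcodes held 14.7 Pck1 UMIs and saline barcodes 3.63, a ratio of 4.07 (2.47 to 7.18). On this scale G6pc had a ratio of 0.803 (0.506 to 1.33), and Sord and Miox 0.925 each, with intervals that held 1. Khk was past the 1.5-fold line at 1.59 (1.19 to 2.18), where 15.2% of all genes were called higher and 0.878% lower. In free RNA the same scale gave 2.49 (2.22 to 2.80) for Pck1 and 0.508 (0.420 to 0.612) for G6pc. There 37.2% of all genes were called higher and 6.66% lower. Pck1 was higher on all 3 scales. Leaving out mt- genes or counting per tubule marker UMI multiplies every ratio in a class by the same factor, above 1. Neither scale could therefore end the Pck1 call made on the full total. In gated barcodes under the limit, Sord and Miox were called lower on the full total alone of these 3 scales. With both mt- genes and Malat1 left out, Miox was lower at 0.666 (0.536 to 0.837), where 4.21% of all genes were. Sord, at 0.667, fell just short of the line there. G6pc was called lower on the full total and on that without mt- genes. The lost lower calls come from the same factors.

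Segments of the tubule express these enzymes unevenly, so gated barcodes were split by markers of the early (S1 and S2) and late (S3) segments. The barcodes with S3 marker UMIs and no S1 or S2 ones, 604 in the cisplatin and 63 in the saline library, gave the largest counts. There Pck1 had a ratio of 2.51 (1.13 to 6.92), G6pc of 0.336 (0.176 to 0.693) and Miox of 0.491 (0.354 to 0.695). Sord had 0.627 (0.408 to 1.0) and Khk 1.40 (0.845 to 2.48). The barcodes with S1 and S2 marker UMIs alone, 136 in the cisplatin and 23 in the saline library, held 31 Pck1 UMIs in the cisplatin library and 1 in the saline library, too few for a comparison (ratio 4.49, 0.749 to 183). G6pc was above 1 where early markers were present, with intervals that held 1, at 1.74 (0.257 to 74.4) with 12 cisplatin and 1 saline UMIs in S1 and S2 barcodes, and at 1.23 (0.384 to 6.29) with 31 cisplatin and 3 saline UMIs in barcodes with both kinds of marker. In barcodes with neither it had 0.477 (0.191 to 1.42), so its interval left out 1 only in those with S3 markers alone. Barcodes with S3 markers alone made up 42.4% of the gated cisplatin and 36.6% of the gated saline barcodes. Those with both kinds made up 12.1% of the cisplatin and 16.3% of the saline ones. In gated barcodes a single S3 gene, Atp11a, gave 1087 of 1444 cisplatin and 93 of 151 saline S3 marker UMIs.

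By depth, Pck1 was above 1 in each of 3 bins, while G6pc was below 1 in the shallowest bin alone. In barcodes of at least 500 and fewer than 750 UMIs, Pck1 had a ratio of 2.70 (1.34 to 6.38) and G6pc of 0.327 (0.177 to 0.629). In the middle bin, which starts at 750 UMIs, Pck1 had 2.05 (0.846 to 6.46) and G6pc 1.27 (0.397 to 6.45), both with intervals that held 1. In barcodes of at least 1000 UMIs, Pck1 had 4.29 (1.44 to 21) and G6pc 1.07 (0.343 to 5.35), and that G6pc value rests on 3 saline UMIs. Miox differed most in these deep barcodes, at 0.362 (0.257 to 0.521), and was at 0.908 (0.643 to 1.31) in the shallow ones. The deep bin held 326 cisplatin and 24 saline barcodes.

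The lists of related genes below are read against the 3.41% of all genes called higher, the 5.03% called lower and the median log2 ratio of -0.09 in gated barcodes. Of 18 other genes of gluconeogenesis and the reversible steps it shares with glycolysis, 17 were measured in gated barcodes, 1 was higher and 0 lower, with a median log2 ratio of 0.01. The gene that was higher was Gapdh, a shared reversible step, with 401 CPM in cisplatin and 256 CPM in saline barcodes, a ratio of 1.57 (1.11 to 2.27). Pcx, pyruvate carboxylase, which makes the substrate of Pck1, had 179 CPM in cisplatin and 146 CPM in saline barcodes, a ratio of 1.22 (0.774 to 2.04). Slc37a4, which carries glucose 6-phosphate to the G6pc enzyme, had 78 UMIs in the cisplatin library and 3 in the saline library, a ratio of 2.71 (0.892 to 13.4). In free RNA 4 of 17 genes of this list were higher and 0 lower, Slc37a4 (1.55) and Gapdh (2.41) among them, against 14.4% of all genes higher and 20.7% lower there.

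Of 10 genes for the entry of lactate, glutamine and glycerol, 9 were measured, 0 were higher and 2 lower, with a median log2 ratio of 0.36. Slc5a12, a lactate carrier of the early tubule, had 75.4 CPM in cisplatin and 168 CPM in saline gated barcodes, a ratio of 0.448 (0.282 to 0.739). Ldha, a lactate dehydrogenase subunit, had 209 CPM in cisplatin and 329 CPM in saline barcodes, a ratio of 0.634 (0.461 to 0.889). Both were also lower in free RNA, at 0.261 and 0.577, where 3 genes of this list were higher (Ldhb at 1.57, Glud1 at 1.69 and Slc38a3 at 4.66) against 14.4% of all genes higher and 20.7% lower. Glutamine and glycerol genes did not pass the line in gated barcodes, with Glud1 at 1.41 and Gk at 1.40.

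Of 9 further fructose and polyol genes, 5 were measured in gated barcodes and 0 passed in either direction, with a median log2 ratio of 0.13. Among them Tkfc, the triose kinase that acts later than Khk in fructose breakdown, had a ratio of 1.03 (0.661 to 1.67). In the inositol and glucuronate list, 1 of 7 measured genes of 10 was lower, 0 were higher and the median log2 ratio was 0.17. It was Slc5a3, the sodium and myo-inositol carrier, with 129 CPM in cisplatin and 329 CPM in saline gated barcodes, a ratio of 0.391 (0.280 to 0.556), and 0.343 in free RNA. The genes that act after Miox on glucuronate were near parity, with Akr1a1 at 0.965, Dcxr at 1.15 and Xylb at 1.22.

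Of 13 transcriptional regulators of these enzymes, all were measured, 1 was higher and 1 lower, with a median log2 ratio of -0.09. The lower one was Ppargc1a, a coactivator of gluconeogenic and mitochondrial genes, with a ratio of 0.557 (0.330 to 0.998). Its interval ended close to 1, and it was also called lower in free RNA, at 0.387. Hnf4a had 209 CPM in cisplatin and 227 CPM in saline barcodes, a ratio of 0.920 (0.633 to 1.38), and Mlxipl, the carbohydrate response factor, a ratio of 0.735 (0.561 to 0.978).

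Of 10 tubule injury genes, 8 were called higher and 0 lower in gated barcodes, beside 3.41% and 5.03% of all genes, but 6 of those 8 had at most 3 saline UMIs and reached the 20-UMI minimum through the cisplatin library, so the count is a description. With no mt- limit 5 of the 10 were called higher, beside 1.21% of all genes. Havcr1, the kidney injury molecule, had 60 UMIs in the cisplatin library and 0 in the saline library, at least 2.08-fold higher against a floor of 3 saline UMIs, with an exact 95% lower limit of 1.64 for the ratio. Lcn2, a secreted lipocalin, had 135 UMIs in the cisplatin library and 0 in the saline library, at least 4.68-fold higher against the same floor, with an exact lower limit of 3.76. Cdkn1a, a cell cycle inhibitor induced by DNA damage, had a ratio of 16 (4.40 to 133), and Spp1, osteopontin, of 1.91 (1.5 to 2.47). In free RNA all 10 were called higher, where 14.4% of all genes were. Of the segment markers, Slc5a12 was lower among 3 measured of 3 S1 and S2 genes, and Slc7a13 was lower, at 0.558 (0.403 to 0.789), among 4 measured of 5 S3 genes. Slc7a13 is also a gate gene.

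**Figure D5:**
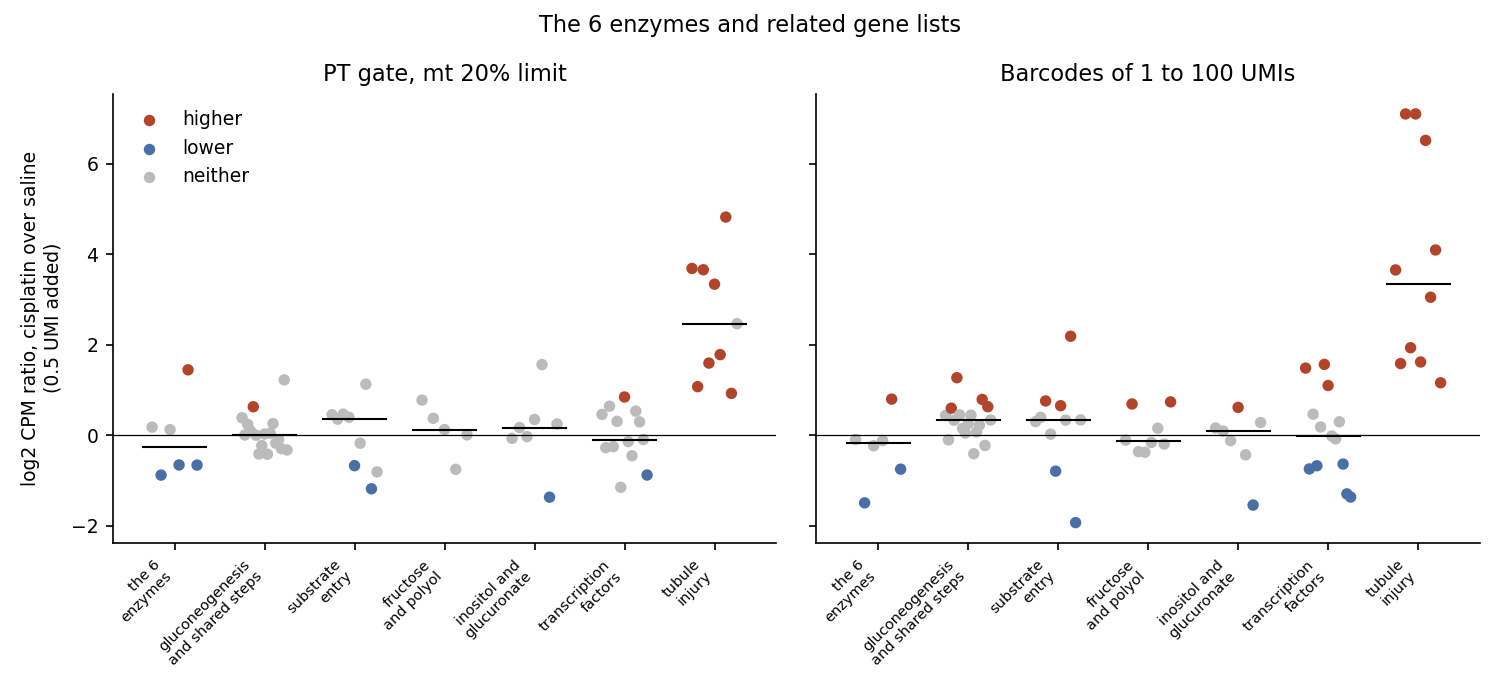
Log2 ratio of cisplatin over saline CPM, with 0.5 UMIs added to each count, for each measured gene of the 6 enzymes, the related pathway lists and the injury list, in proximal tubule (PT)-gated barcodes under the mt- limit and in barcodes of 1 to 100 UMIs. Each point is a gene coloured by its call and each short line a list's median, which is 0.01 for the gluconeogenesis list in gated barcodes, where 8 injury genes are called higher, 6 of them with at most 3 saline UMIs.

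Among the genes whose profile was most like the mean of the 6 were Glyctk, Cyp2e1, Slc26a1, Aldh8a1 and Folr1. Likeness was Pearson's r of log2 (CPM + 10) over 10 points, the barcode classes of the 2 libraries, among 11944 genes, and it was 0.998 for Glyctk and 0.996 for Folr1. The points share libraries and differ mostly in how much tubule RNA they hold. Of the 6 genes, Pck1 followed their mean least, at 0.917, and Fbp1 followed it at 0.993. Each of the 6 is part of that mean, so its own r is partly built in. Cyp2e1 is a gate gene, and Glyctk, glycerate kinase, is on the fructose list.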

How the data were processed

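Single-cell 3′ RNA libraries were made with a 10x kit (V3.1), per the labels' protocols. The authors deposited unfiltered matrices of UMI counts per gene and barcode, not normalized. The submitters' processing notes name Cell Ranger 6.0.1 and mm10, whereas the matrix header names Cell Ranger 4; settings are not given in the sources used here. No authors' cell annotation was used and no doublet caller was run, so a barcode may hold more than 1 cell.

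From the deposited counts, UMIs were summed per library and barcode class and divided by the class total (CPM). Depths were 19994105 UMIs for the cisplatin and 5879496 for the saline library. Levels carry exact Poisson intervals and CPM ratios exact conditional binomial (Clopper-Pearson) intervals at 95%, with scipy 1.17.1 and numpy 2.4.6 under Python 3.11.15. They cover counting error only. With 1 library per group there is no replicate check and no p-value. Medians of log2 ratios add 0.5 UMIs to each count. Shares per barcode were also taken after thinning each barcode to 500 UMIs. The calling code was tested on simulated counts.

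The 6 genes and all lists were chosen with earlier results of these data known. Genes named from a list were up to 4 whose interval lay farthest from 1, plus Slc37a4, Pcx, Hnf4a and Havcr1. Some genes that this rule names are not reported here. Other genes were named after their values were seen. Positions are from GENCODE on GRCm38. Alternatives covered the UMI minimum, mt- limit, gate, total, weighting, free RNA subtraction and call rule.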

Additional observations from a re-analysis of the deposited data

How the results depend on the processing

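No paired analysis was possible because each group is 1 library, and leaving out a replicate was not possible for the same reason. Over 16 alternatives in gated barcodes Pck1 stayed above 1, between 2.18 and 4.61. G6pc was below 1 in 15 of 16, and its exception was 1.07 at a minimum of 1000 UMIs, where 24 saline barcodes held 3 G6pc UMIs. Its lower call was also lost at an mt- limit of 10% (0.685), under the stricter gate (0.650), per tubule marker UMI (0.803) and at a ratio of at least 2. Sord was below 1 in 15 of 16, and its exception was 1.16 in barcodes with no endothelial marker UMI (511 cisplatin and 55 saline). Over 9 alternatives in free RNA, Pck1 ran from 1.22 to 2.49 and G6pc from 0.185 to 0.508. The cause of these changes was not tested.

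In gated barcodes the minimum of 1000 UMIs gave 0.692 for Khk and 0.362 for Miox. No endothelial marker UMI gave 1.61 for Khk and a median log2 ratio of 0.34. UMIs per tubule marker UMI gave 1.59 for Khk, 0.925 for Sord and for Miox, a median of 0.27, 2 genes higher and 0 lower, where 15.2% of all genes were higher and 0.878% lower. No mt- limit gave 0.477 for Sord, and subtracting free RNA at 50% gave 0.417 for Miox. The number of lower genes was 1 at a minimum of 300 or 1000 UMIs, an mt- limit of 10%, no endothelial marker UMI, a total without mt- genes or thinning to 500 UMIs, and 0 at a ratio of at least 2. Between 3.15% and 6.06% of all genes were lower under these settings.

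In free RNA, barcodes of 1 to 50 UMIs gave 1.29 for Pck1, 0.185 for G6pc, 0.529 for Khk, 0.367 for Sord and 0.543 for Miox, with 0 higher, 4 lower and a median of -0.90, where 2.85% of all genes were higher and 31.0% lower. Barcodes of 1 to 20 UMIs gave 1.22, 0.213, 0.570, 0.344 and 0.509 for the same genes and 0.608 for Fbp1, with 0 higher, 4 lower and a median of -0.89, where 1.64% were higher and 40.7% lower. A total without mt- genes gave 2.41 for Pck1, 0.491 for G6pc, 1.30 for Fbp1, 1.18 for Khk, 0.824 for Sord and 1.28 for Miox, with 1 lower and a median of 0.30, where 7.48% of all genes were lower. UMIs per tubule marker UMI gave 2.49, 0.508, 1.34, 1.22, 0.853 and 1.32 in that order, with 1 lower and a median of 0.35, where 6.66% were lower. Barcodes of more than 100 and fewer than 500 UMIs gave 1.25 for Fbp1 and 1.01 for Khk, and those of 21 to 100 UMIs gave 0.926 for Khk, 1.02 for Miox and a median of -0.042. A ratio of at least 2 left 0 higher and 1 lower, where 6.68% were higher and 10.5% lower.

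The remaining free RNA alternatives were chosen after seeing the data, as were UMIs per tubule marker UMI and the joint use of no mt- limit with a total without mt- genes. Cisplatin barcodes of more than 100 and fewer than 500 UMIs against saline barcodes of 1 to 100 gave 1.49 for Pck1, 0.702 for Khk and 0.761 for Miox, with 0 higher and a median of -0.45, where 9.23% of all genes were higher. The same without mt- genes gave 2.25 for Pck1, 0.497 for G6pc, 1.38 for Fbp1, 1.06 for Khk, 0.828 for Sord and 1.15 for Miox, with 1 lower and a median of 0.14, where 6.25% were lower. Barcodes of 1 to 50 UMIs without mt- genes gave 2.42 for Pck1, 1.46 for Fbp1, 0.994 for Khk, 0.691 for Sord and 1.02 for Miox, with 1 lower and a median of 0.016, where 4.46% were lower. Equal weight per barcode and free RNA subtraction gave no valid interval, so no number of called genes was taken from them. Depth limits the gated values, where the saline library held 16 Pck1, 22 G6pc and 8 Fbp1 UMIs.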

Other observations

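One cisplatin barcode stood out among those gated without the mt- limit. It held 24818 UMIs over 1856 genes, with 79.8% of UMIs from mt- genes, and it carried 16 Pck1 UMIs, 7 of Khk, 3 of Fbp1 and 0 of G6pc. Those 16 were 2.47% of the Pck1 UMIs of that class, and the 20% limit removes the barcode.

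Most gated barcodes showed few of the enzymes together. Under the mt- limit, 31.5% of cisplatin and 29.1% of saline barcodes held none of the 6 genes, and 37.0% of cisplatin and 44.2% of saline barcodes held 1 of them. All 6 were present in 1 cisplatin barcode and 0 saline barcodes.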
